A study of Homo sapiens with 6 samples.

Results

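The genes for the splicing factors of 4 families were examined in Huh7 cells, an established human hepatoma line. The families are the SR proteins (SRSF symbols), the heterogeneous nuclear ribonucleoproteins (HNRNP), the SF3A and SF3B subunits (SF3) and the proteins of the small nuclear ribonucleoproteins (SNRP). Members were taken by gene symbol alone, from all rows whose symbol belongs to one of these families. Pseudogenes (180 rows) and SNRPN (1 row) were left out. This gave 55 genes of 57905 rows in the table: 24 HNRNP, 11 SRSF, 11 SNRP and 9 SF3 genes. Of these, 51 had at least 1 FPKM in at least 3 of the 6 libraries and were tested. FPKM counts fragments per kilobase of exon at a common depth and is thus a level per length, so it can be set side by side between genes.

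The cells were transfected either with a scrambled control siRNA (siControl, 3 libraries) or with an siRNA against ASGR1 (siASGR1, 3 libraries), and RNA was taken 72 h later from both groups. ASGR1 is the main chain of the receptor by which hepatocytes take up glycoproteins that have lost their sialic acid. The knockdown is transient and was made in this 1 cell line. The labels do not say whether the libraries of a group came from separate cultures, so each p-value rests on a spread between libraries that may be technical only.

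Introns are removed from nuclear transcripts by the spliceosome, which is built from small nuclear ribonucleoproteins. Most of these are an RNA wrapped in a ring of Sm proteins with particle-specific partners. U1 recognises the start of an intron, and U2, through SF3A and SF3B, the branch site near its end. SR proteins bind exons and mostly favour their inclusion, while many hnRNP proteins coat nascent transcripts and can block a nearby site. The balance between these families sets many alternative splicing choices. Most of these genes are expressed in nearly all cells, hepatocytes included, and many SR and hnRNP genes limit their own level through transcripts that are degraded.

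The 250 bases before the RefSeq transcription start are given for the hnRNP genes with the largest changes and a promoter entry. They are also given for HNRNPH1, the hnRNP gene that fell, and for 1 gene each of the SF3 and SNRP families. The sequences are those of RefSeq on GRCh38.p14, written 5′ to 3′ on the strand of the gene. They were found for 50 of the 55 genes. HNRNPA1, HNRNPA1L3, SF3B3, SNRPD1 and SRSF2 had no entry. GENCODE v29 places some starts differently. The windows of HNRNPA2B1 and SF3B2 lie wholly inside the gene as placed there. Those of HNRNPM and HNRNPA3 lie mostly inside it and that of SNRPB partly, so these letters may include transcribed sequence. Capitals mark a match, on either strand, to the E-box CACGTG, the CCAAT box CCAAT, the ETS site CCGGAAG, the NRF1 site (GCGCA, any base and GCGC) or the TATA box TATAAA.
HNRNPM (chr19:8444725-8444974, plus strand): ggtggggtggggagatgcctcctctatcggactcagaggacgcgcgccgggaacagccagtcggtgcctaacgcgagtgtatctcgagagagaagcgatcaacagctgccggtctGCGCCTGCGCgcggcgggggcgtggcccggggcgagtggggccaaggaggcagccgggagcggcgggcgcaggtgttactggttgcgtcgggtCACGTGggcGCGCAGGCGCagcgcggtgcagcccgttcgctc
HNRNPA3 (chr2:177212544-177212793, plus strand): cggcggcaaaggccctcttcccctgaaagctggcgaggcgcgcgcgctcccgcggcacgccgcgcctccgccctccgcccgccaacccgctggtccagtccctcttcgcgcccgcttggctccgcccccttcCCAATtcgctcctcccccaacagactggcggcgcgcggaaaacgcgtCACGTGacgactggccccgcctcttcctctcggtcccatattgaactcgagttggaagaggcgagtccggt
HNRNPA2B1 (chr7:26200747-26200996, minus strand): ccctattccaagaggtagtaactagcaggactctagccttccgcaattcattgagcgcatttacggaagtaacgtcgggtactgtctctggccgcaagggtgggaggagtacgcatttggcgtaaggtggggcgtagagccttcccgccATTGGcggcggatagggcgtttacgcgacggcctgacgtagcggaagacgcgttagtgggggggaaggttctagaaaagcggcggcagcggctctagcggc
HNRNPL (chr19:38852348-38852597, minus strand): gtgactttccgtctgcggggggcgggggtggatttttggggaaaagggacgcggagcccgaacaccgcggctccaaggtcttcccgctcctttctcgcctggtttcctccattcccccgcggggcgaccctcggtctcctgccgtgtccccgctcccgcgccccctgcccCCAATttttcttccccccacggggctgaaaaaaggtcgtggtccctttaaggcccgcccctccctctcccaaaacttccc
HNRNPH1 (chr5:179634785-179635034, minus strand): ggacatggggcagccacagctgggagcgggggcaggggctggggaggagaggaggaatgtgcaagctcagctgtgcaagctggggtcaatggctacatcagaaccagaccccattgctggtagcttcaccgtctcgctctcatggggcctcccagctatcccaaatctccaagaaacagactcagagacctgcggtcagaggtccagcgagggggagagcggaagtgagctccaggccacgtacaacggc
SF3B2 (chr11:66052114-66052363, plus strand): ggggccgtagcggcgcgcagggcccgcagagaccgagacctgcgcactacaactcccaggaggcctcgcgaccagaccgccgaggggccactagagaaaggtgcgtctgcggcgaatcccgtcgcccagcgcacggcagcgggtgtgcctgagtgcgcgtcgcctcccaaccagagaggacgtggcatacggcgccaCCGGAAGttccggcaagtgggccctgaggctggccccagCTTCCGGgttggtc
SNRPB (chr20:2470790-2471039, minus strand): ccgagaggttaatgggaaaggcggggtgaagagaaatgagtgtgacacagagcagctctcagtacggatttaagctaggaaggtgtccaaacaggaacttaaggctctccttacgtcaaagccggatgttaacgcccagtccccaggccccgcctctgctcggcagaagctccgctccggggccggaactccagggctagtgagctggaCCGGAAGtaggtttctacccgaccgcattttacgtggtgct
The HNRNPM promoter held an E-box that began at position -42 from the start and a pair of NRF1 matches. HNRNPA3 held an E-box at -71 and a CCAAT box, HNRNPA2B1 and HNRNPL held a CCAAT box, and HNRNPH1 had none of the 5 capitalised motifs. SF3B2 had 2 ETS matches and SNRPB had 1.

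The families differed in which of these letters their promoters held. Among tested members with a promoter entry, the ETS site was found in 6 of 8 SF3 and 7 of 10 SNRP promoters, but in 3 of 20 hnRNP and 2 of 8 SR promoters. Of the 9361 promoters of tested genes, 17.0% held it, and of all 27305 promoters 8.82%. The CCAAT box was found in 13 of 20 hnRNP promoters, 1 of 8 SR, 1 of 8 SF3 and 4 of 10 SNRP promoters, against 35.8% of the promoters of tested genes and 33.0% of all. The E-box was present in 6 of 20 hnRNP promoters and 1 of 8 SF3 promoters, against 9.16% of tested genes and 6.49% of all. The GC box GGGCGG, searched on both strands but not capitalised, was present in 29 of 46 promoters, 63.0%, against 68.3% of tested genes and 42.3% of all. NRF1 matches were in 5 of 46, with 11.2% of tested genes and 5.53% of all, and the TATA box was in 6 of 46, with 5.11% of tested genes and 11.1% of all. None of these motifs lies within another. The motifs were chosen after expression values were seen, and a match describes letters, not a bound site. Some windows lie mostly or wholly inside the gene in GENCODE v29, such as those of SF3A2, SNRPE and SNRPG, each with an ETS match. The counts are thus of RefSeq windows, which are not all known to be upstream sequence. The ETS site was held by 10 of the 26 promoters of genes called higher and by 8 of the other 20. The CCAAT box was held by 10 of 26 and 9 of 20, and the E-box by 5 of 26 and 2 of 20. The GC box was held by 19 of 26 and 10 of 20, the NRF1 site by 2 of 26 and 3 of 20, and the TATA box by 4 of 26 and 2 of 20.

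The siRNA target gives the check of the labels. In the table used here ASGR1 was 17.54, 17.56 and 16.90 FPKM in siControl and 4.60, 4.82 and 4.71 in siASGR1, 27.2% of siControl (log2 fold change -1.68, SE 0.0438, adjusted p = 1.75e-06 by limma). The separate files of the siASGR1 libraries list 14.65, 15.81 and 14.04 for the same gene, 85.6% of siControl. The 2 sources thus disagree on the size of the knockdown, and no other gene differed between them. Depth, rebuilt from the steps between low FPKM values, was 16325000 to 19322000 fragments in siControl and 18476000 to 19254000 in siASGR1. The correlation of log2(FPKM + 1) was 0.985 to 0.988 between libraries of a group and 0.941 to 0.945 between groups. The 55 splicing factor genes made up 0.743% to 0.772% of the FPKM sum in siControl and 0.946% to 0.972% in siASGR1.

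Most of the splicing factor genes had higher mRNA levels in siASGR1. Of the 51 tested, 31 rose, 3 fell and 17 were not called (limma, Benjamini-Hochberg over all 13568 tested genes, adjusted p under 0.05). The share of all tested genes called higher was 20.9%, and the share called lower was 40.4%, 61.3% in all. The median log2 fold change was 0.274 over the splicing factor genes and -0.134 over all tested genes. The 3 genes that fell were HNRNPH1 (ENSG00000169045, chromosome 5, 179614178 to 179634784, minus strand), SF3A2 (ENSG00000104897, chromosome 19, 2236504 to 2248679, plus strand) and SNRPA1 (ENSG00000131876, chromosome 15, 101281510 to 101295282, minus strand), all protein-coding and placed as in GENCODE v29 on GRCh38. The 2 groups did not overlap, with siASGR1 higher, for 37 of the 51 genes, against 23.5% of all tested genes, and with siASGR1 lower for 3, against 43.8%. In either direction 67.3% of all tested genes had separate groups.

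These calls depend in part on how libraries are scaled. With median-of-ratios factors the median over all tested genes moved from -0.134 to 0.034, and 33.4% of all tested genes were called higher and 25.8% lower, 59.1% in all. Under that scaling 44 of the 51 splicing factor genes were called higher and 3 lower. All 34 genes called with FPKM as deposited kept their direction and call under each of the 4 other scalings tried. SRSF6, SF3B5, SNRPB2, HNRNPH2 and HNRNPUL2, each slightly lower as deposited and not called, changed sign with median-of-ratios scaling. Of these, SRSF6 (0.15, adjusted p = 0.00973) and HNRNPH2 (0.13, adjusted p = 0.0484) were then called higher by limma. In a bulk sample, fewer cells of a type and less RNA per cell cannot be told apart.

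**Figure D1:**
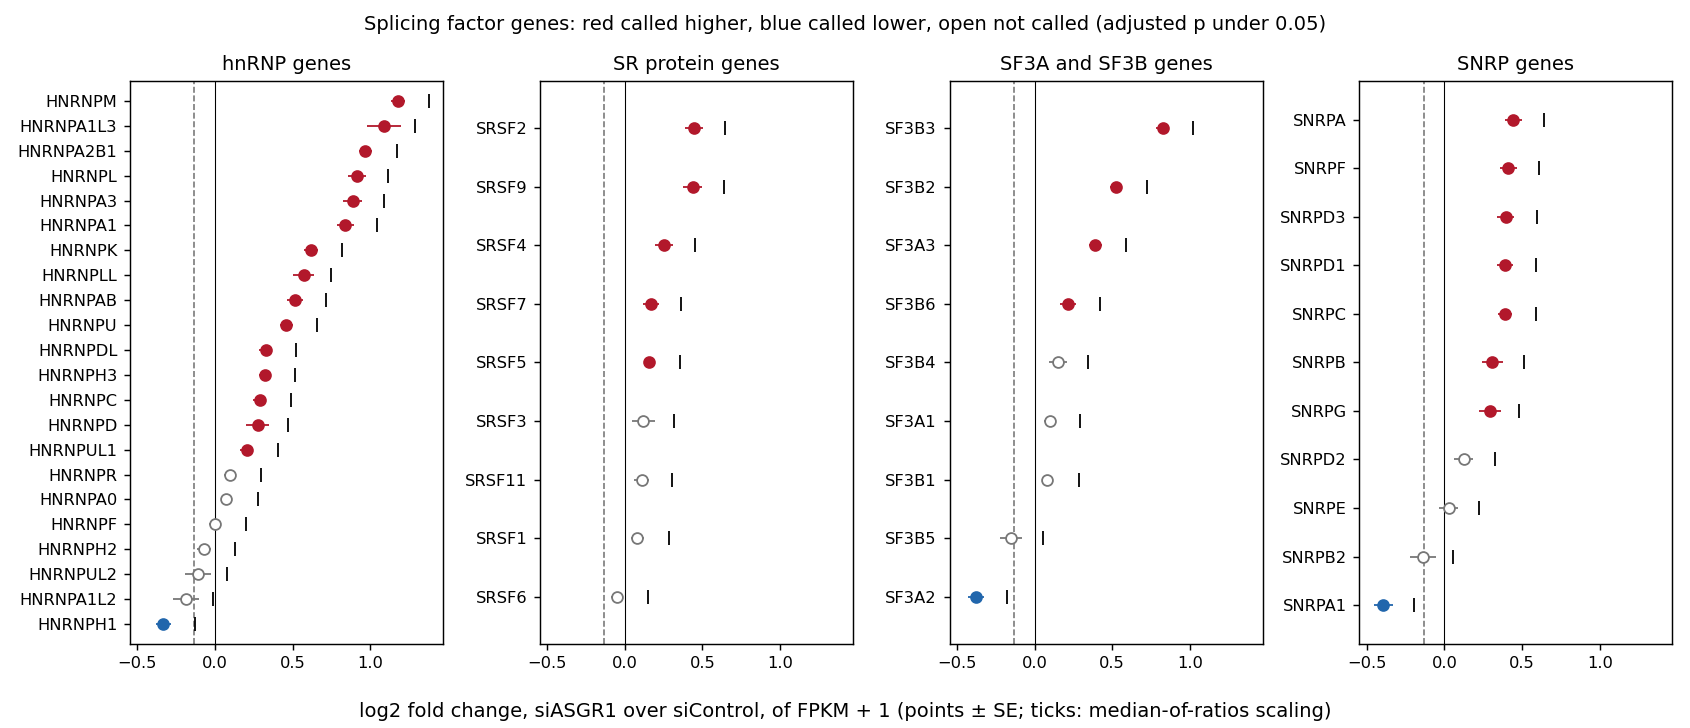
Log2 fold change of FPKM + 1, siASGR1 over siControl, for the 51 tested genes in 4 panels by family (points, with SE bars; n = 3 libraries per group). Red points were called higher, blue lower and open ones neither; black ticks give the value after median-of-ratios scaling and the dashed line the median of all tested genes, -0.134. The hnRNP panel reaches 1.18 at HNRNPM, while 1 blue point stands in each of the hnRNP, SF3 and SNRP panels.

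The hnRNP genes had the largest changes. Of 22 tested, 15 rose, 1 fell and 6 were not called, with log2 fold changes from -0.33 to 1.18 and a median of 0.324. With median-of-ratios scaling 19 rose and 1 fell. Their summed FPKM was 926.52 to 993.47 in siControl and 1367.26 to 1421.86 in siASGR1, 1.44-fold higher.

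HNRNPM (ENSG00000099783, chromosome 19, 8444767 to 8489114, plus strand), which binds GU-rich RNA and regulates exon choice, had the largest change of the 51 genes. It was 26.36, 25.58 and 25.57 FPKM in siControl and 57.02, 61.99 and 60.29 in siASGR1, 2.31-fold higher (log2 fold change 1.18, SE 0.0428, adjusted p = 3.1e-06 by limma). Every siASGR1 library lay above every siControl library, and the spread within each group was small beside the gap. Its promoter window, printed above, holds an E-box at -42 from the RefSeq start, and that of HNRNPA3 holds one too. Both E-boxes lie inside the genes as GENCODE v29 places them. A link of this motif to the change was not tested.

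The A/B group of hnRNP proteins, abundant packaging proteins that often oppose SR proteins at splice sites, rose at HNRNPA2B1, HNRNPA1 and HNRNPA3. HNRNPA2B1 was 129.93, 124.08 and 135.46 FPKM in siControl and 254.05, 249.79 and 260.71 in siASGR1 (1.96-fold; log2 fold change 0.97). HNRNPA1 was 61.08, 58.12 and 66.66 in siControl and 109.25, 112.32 and 112.66 in siASGR1 (1.80-fold; 0.84). HNRNPA3 was 42.87, 39.77 and 47.25 in siControl and 79.54, 80.18 and 82.45 in siASGR1 (1.86-fold; 0.89). None of the 3 genes had overlapping groups. HNRNPA2B1 had the highest mean level of the hnRNP genes in both groups, and it took 19328 to 46518 rebuilt fragments per library.

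Reads of HNRNPA1 and HNRNPA3 can be split with near-identical copies. HNRNPA1L3, a near copy of HNRNPA1 that GENCODE v29 names HNRNPA1P48, was 33.51, 25.28 and 28.33 FPKM in siControl and 58.00, 60.40 and 69.84 in siASGR1 (2.16-fold). It therefore moved with HNRNPA1, and its own level is uncertain. The 74 HNRNPA1 pseudogene rows summed to 49.9 FPKM in siControl and 93.3 in siASGR1 as group means, and the 16 HNRNPA3 rows to 11.7 and 29.0. HNRNPA1L2, another copy, had the fewest rebuilt fragments of the 51 splicing factor genes tested (110 to 154 per library) and went from 5.68 ± 0.254 to 4.89 ± 0.651 (SD, n = 3; adjusted p = 0.0948 by limma), so it was not called. Without siASGR1 replicate 3 HNRNPA1L2 was called lower (log2 fold change -0.27, adjusted p = 0.0187 by limma), which made 2 hnRNP genes lower. HNRNPA0, a further A/B protein encoded by an intronless gene, was 62.9 ± 0.468 and 66.1 ± 1.00 and was not called either (adjusted p = 0.0947 by limma).

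HNRNPL, which binds CA repeats, was 29.92, 27.87 and 27.19 FPKM in siControl and 52.25, 58.00 and 52.72 in siASGR1 (1.92-fold; log2 fold change 0.92, SE 0.0565). Its relative HNRNPLL rose less, from a mean of 5.80 to 9.08 (1.57-fold). HNRNPK, a KH-domain protein that binds C-rich RNA and DNA, was 72.95, 71.20 and 77.62 in siControl and 115.77, 111.38 and 114.76 in siASGR1 (1.54-fold). The groups did not overlap for HNRNPL, HNRNPLL or HNRNPK.

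Smaller rises were called for HNRNPAB (1.43-fold), HNRNPU (1.38-fold), a nuclear scaffold protein, HNRNPDL (1.26-fold), HNRNPH3 (1.26-fold), HNRNPC (1.22-fold), which binds uridine tracts, HNRNPD (1.22-fold), also known as the AU-rich element binding protein AUF1, and HNRNPUL1 (1.16-fold). HNRNPR, with a mean of 29.1 in siControl and 31.2 in siASGR1, missed the threshold (adjusted p = 0.0750 by limma). HNRNPUL2 and HNRNPH2 were 0.92 and 0.95 times siControl and were not called.

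HNRNPH1 was the only tested hnRNP gene called lower with all 6 libraries. With HNRNPF and HNRNPH2 it belongs to the H/F group, which binds guanine tracts near splice sites. It was 62.06, 61.72 and 67.50 FPKM in siControl and 50.88, 48.38 and 51.85 in siASGR1, 0.790 times siControl (log2 fold change -0.33, SE 0.0492, adjusted p = 0.000895 by limma). Each siASGR1 library was below each siControl library, and the gene was also called lower after median-of-ratios scaling (-0.13, adjusted p = 0.0366). HNRNPF was 52.36, 52.19 and 50.16 in siControl and 51.45, 53.13 and 50.25 in siASGR1, with overlapping groups (adjusted p = 0.984 by limma). After median-of-ratios scaling HNRNPF was called higher (0.20, adjusted p = 0.00647). HNRNPH3, a further HNRNPH gene, rose 1.26-fold (adjusted p = 0.000416 by limma), as listed above with the smaller rises.

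**Figure D2:**
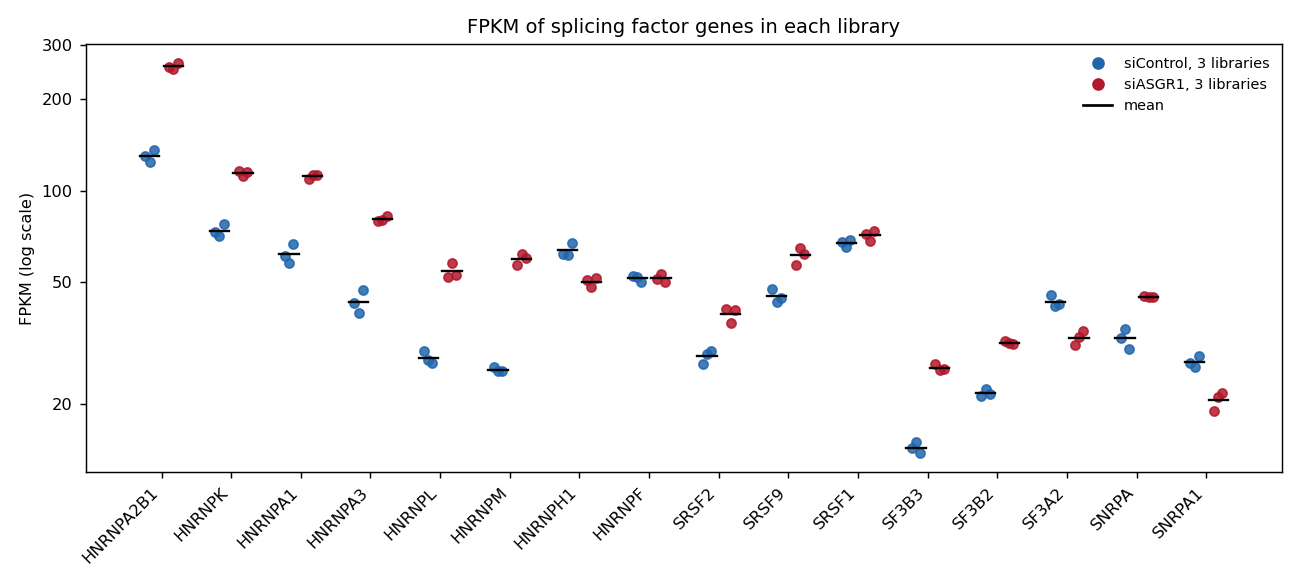
FPKM of 16 splicing factor genes on a log axis, 1 point per library (blue, siControl; red, siASGR1; 3 libraries each) with a line at each mean. HNRNPA2B1 moves from between 124.08 and 135.46 to between 249.79 and 260.71; HNRNPF overlaps between groups, and HNRNPH1, SF3A2 and SNRPA1 are lower in siASGR1.

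The SR protein genes changed less. Of 9 tested, 5 rose, none fell and 4 were not called, with log2 fold changes from -0.05 to 0.445 and a median of 0.159. With median-of-ratios scaling 9 rose, since the scaling lifted the 4 others past the threshold. SRSF2, which binds exonic enhancers, was 27.04, 29.09 and 29.93 FPKM in siControl and 40.82, 36.82 and 40.59 in siASGR1 (1.37-fold; log2 fold change 0.45, SE 0.0575, adjusted p = 0.000471 by limma). SRSF9 was 47.55, 43.12 and 44.34 in siControl and 56.97, 64.86 and 62.05 in siASGR1 (1.36-fold). The groups did not overlap for either gene.

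SRSF4, a long SR protein with 2 RNA-binding domains, was 30.88, 33.30 and 36.01 FPKM in siControl and 39.59, 39.45 and 40.45 in siASGR1 (1.19-fold). SRSF5, of similar build, rose 1.12-fold. SRSF7, which also carries a zinc knuckle, was 23.31, 21.07 and 22.67 in siControl and 24.95, 26.39 and 24.37 in siASGR1 (1.13-fold, adjusted p = 0.0255 by limma). SRSF7 is the weakest of the called genes. Its adjusted p was 0.0792 without siControl replicate 2, 0.0561 without siASGR1 replicate 1, 0.0715 without siASGR1 replicate 2, 0.0533 with no filter on low values and 0.0581 with the replicate number as a block.

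SRSF1, the founding SR protein, had the highest mean level of the family. It was 67.74, 65.50 and 68.88 FPKM in siControl and 72.27, 68.12 and 73.60 in siASGR1 (adjusted p = 0.141 by limma), with overlapping groups. SRSF3, SRSF6 and SRSF11 were 1.09, 0.964 and 1.08 times siControl and were not called. SRSF10 and SRSF12 lay under the filter and were not tested. SRSF10 was listed at 0.12 to 0.36 FPKM over the 6 libraries under the ID that GENCODE v29 gives it (ENSG00000188529). Since the annotation used for counting is not known, its reads may stand under another ID, and this value is not evidence of a low level. No row carried the symbol SRSF8. SRSF12 was listed at 0.88, 0.48 and 0.92 in siControl and at 0.18, 0.12 and 0.02 in siASGR1. HNRNPCL4 was listed at 0 in all 6 libraries, and HNRNPCL1 at 0 in all but siASGR1 replicate 3, where it was listed at 0.05.

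The summed FPKM of the hnRNP genes over that of the SR genes was 3.053, 2.980 and 3.001 in the siControl libraries and 3.741, 3.823 and 3.811 in the siASGR1 libraries, 1.26 times higher. A ratio within a library does not change with that library's scaling factor. The groups are far apart on this ratio, but it weights the abundant genes and no test was made on it. All 9 tested SR genes have at least 1 transcript annotated for nonsense-mediated decay in GENCODE v29, as do 13 of the 22 hnRNP, 4 of the 11 SNRP and 3 of the 9 SF3 genes. Gene-level FPKM cannot separate such transcripts from coding ones.

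The SF3 genes encode the U2 subcomplexes that hold the branch site. Of 9 tested, 4 rose, 1 fell and 4 were not called, with a median log2 fold change of 0.149. With median-of-ratios scaling 7 rose and 1 fell. SF3B3, a large scaffold of the SF3B complex, was 14.38, 15.00 and 13.84 FPKM in siControl and 26.96, 25.86 and 25.99 in siASGR1 (1.82-fold; log2 fold change 0.82, SE 0.0443, adjusted p = 1.07e-05 by limma). SF3B2, which contacts the RNA beside the branch site, was 21.25, 22.47 and 21.61 in siControl and 32.12, 31.79 and 31.46 in siASGR1 (1.46-fold). Neither gene had overlapping groups.

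SF3A3 was 23.38, 24.71 and 24.53 FPKM in siControl and 31.08, 33.29 and 31.83 in siASGR1 (1.33-fold). SF3B6, a small subunit at the branch site, was 70.52, 71.79 and 76.91 in siControl and 83.64, 89.73 and 81.69 in siASGR1 (1.16-fold). SF3A2 moved the other way. It was 45.37, 41.76 and 42.43 in siControl and 31.12, 33.22 and 34.71 in siASGR1, 0.765 times siControl (log2 fold change -0.38, SE 0.0536, adjusted p = 0.000739 by limma). SF3A2 and SF3A3 are subunits of the same 3-part SF3A complex, and their groups separated in opposite directions.

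SF3B1, the subunit that encloses the branch site and is often mutated in blood cancers, was 1.06 times siControl and not called (adjusted p = 0.0865 by limma). SF3A1 and SF3B4 were 1.07 and 1.11 times siControl and missed the threshold at adjusted p = 0.0550 and 0.0585 by limma. SF3B5, the SF3 gene with the highest mean level, was 193.64, 181.92 and 179.76 in siControl and 154.12, 185.45 and 161.28 in siASGR1, with overlapping groups (adjusted p = 0.104 by limma). Without siASGR1 replicate 2 SF3B5 was called lower (log2 fold change -0.23, adjusted p = 0.00803 by limma), so that 2 SF3 genes were lower. The summed FPKM of the family was 467.63 to 478.57 in siControl and 478.99 to 516.50 in siASGR1, 1.05-fold higher, with SF3B5 as its most abundant part.

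The SNRP genes encode the Sm ring, shared by the U1, U2, U4 and U5 particles, and proteins of U1 and U2. Of 11 tested, 7 rose, 1 fell and 3 were not called, with log2 fold changes from -0.40 to 0.44 and a median of 0.309. With median-of-ratios scaling 9 rose and 1 fell. Their summed FPKM was 606.75 to 640.08 in siControl and 717.18 to 795.05 in siASGR1, 1.20-fold higher.

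Of the 7 Sm genes, 5 were called higher. SNRPB, which had the highest mean level of the 51 tested genes, was 205.46, 189.85 and 210.65 FPKM in siControl and 239.37, 273.16 and 239.57 in siASGR1 (1.24-fold, adjusted p = 0.00521 by limma). SNRPF was 24.50, 23.12 and 25.58 in siControl and 31.74, 34.62 and 31.96 in siASGR1 (1.34-fold). SNRPD3 was 61.93, 56.47 and 59.13 in siControl and 73.88, 81.95 and 78.36 in siASGR1 (1.32-fold). All siASGR1 libraries were above all siControl libraries for each of these genes.

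SNRPD1 was 30.18, 26.31 and 28.61 FPKM in siControl and 37.80, 37.41 and 37.15 in siASGR1 (1.32-fold), and SNRPG rose 1.25-fold from a mean of 8.38 to 10.5. SNRPD2 and SNRPE were 1.09 and 1.02 times siControl and were not called (adjusted p = 0.106 and 0.728 by limma). The 10 SNRPE pseudogene rows summed to 41.1 FPKM in siControl and 65.5 in siASGR1, more than the gene itself at 19.8 and 20.2, so the value of SNRPE is uncertain. The 20 SNRPG pseudogene rows likewise summed to 19.2 and 27.6.

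The particle-specific proteins of U1 and U2 differed. SNRPA, which binds a loop of the U1 RNA, was 32.89, 35.16 and 30.30 FPKM in siControl and 45.08, 44.71 and 44.89 in siASGR1 (1.37-fold; log2 fold change 0.44, SE 0.0555, adjusted p = 0.000399 by limma). SNRPC, which helps U1 to bind the start of the intron, was 64.97, 60.02 and 62.88 in siControl and 79.57, 85.25 and 81.74 in siASGR1 (1.31-fold). Both U1 genes had separate groups.

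SNRPA1, a U2 protein, was 27.21, 26.37 and 28.63 FPKM in siControl and 18.93, 21.12 and 21.81 in siASGR1, 0.753 times siControl (log2 fold change -0.40, SE 0.0611, adjusted p = 0.00113 by limma). Its groups did not overlap, and it was still called lower after median-of-ratios scaling (-0.20, adjusted p = 0.0257). The 1 SNRPA1 pseudogene row was 40.5 and 32.6 as group means, more than the gene itself at 27.4 and 20.6, so the value of SNRPA1 is uncertain. SNRPB2, which binds U2 together with SNRPA1, was 0.90 times siControl and not called (adjusted p = 0.178 by limma).

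Ratios between related genes within a library do not depend on its scaling factor. In 15 pairs the log2 ratio within each library was compared by an exact two-sided permutation test, whose smallest p with 3 against 3 libraries is 0.1, so the 0.05 threshold could not be reached. The adjusted p over the pairs was at least 0.115, so no shift was called. How often ratios of other gene pairs separate between groups was not computed. Of all tested genes, 67.3% had separate groups on their own. The largest interpretable shift was in SNRPA over SNRPB2, the paired RNA-binding proteins of U1 and U2. It was 1.490, 1.610 and 1.154 in siControl and 2.298, 1.977 and 2.135 in siASGR1. The ratio of SRSF10 to SRSF12 is not given because both are under 1 FPKM.

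HNRNPH1 over HNRNPF was 1.185, 1.183 and 1.346 in siControl and 0.989, 0.911 and 1.032 in siASGR1, and HNRNPH1 over HNRNPH2 was lower too, with means of 1.62 and 1.35. SRSF1 over SRSF9 was 1.425, 1.519 and 1.553 in siControl and 1.269, 1.050 and 1.186 in siASGR1. SRSF4 over SRSF6 was 0.894, 0.956 and 0.992 in siControl and 1.170, 1.180 and 1.168 in siASGR1. These ratios did not overlap between groups.

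SRSF5 over SRSF6 (0.896 to 1.04), HNRNPL over HNRNPLL (4.90 to 5.985), HNRNPUL1 over HNRNPUL2 (3.24 to 4.04) and HNRNPU over HNRNPUL1 (1.22 to 1.46), given as group means, were separate and higher in siASGR1. HNRNPD over HNRNPAB (0.293 to 0.249), HNRNPA1 over HNRNPA2B1 (0.477 to 0.437) and HNRNPA1 over HNRNPA3 (1.43 to 1.38) were separate and lower. SRSF3 over SRSF7 and HNRNPD over HNRNPDL overlapped.

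**Figure D3:**
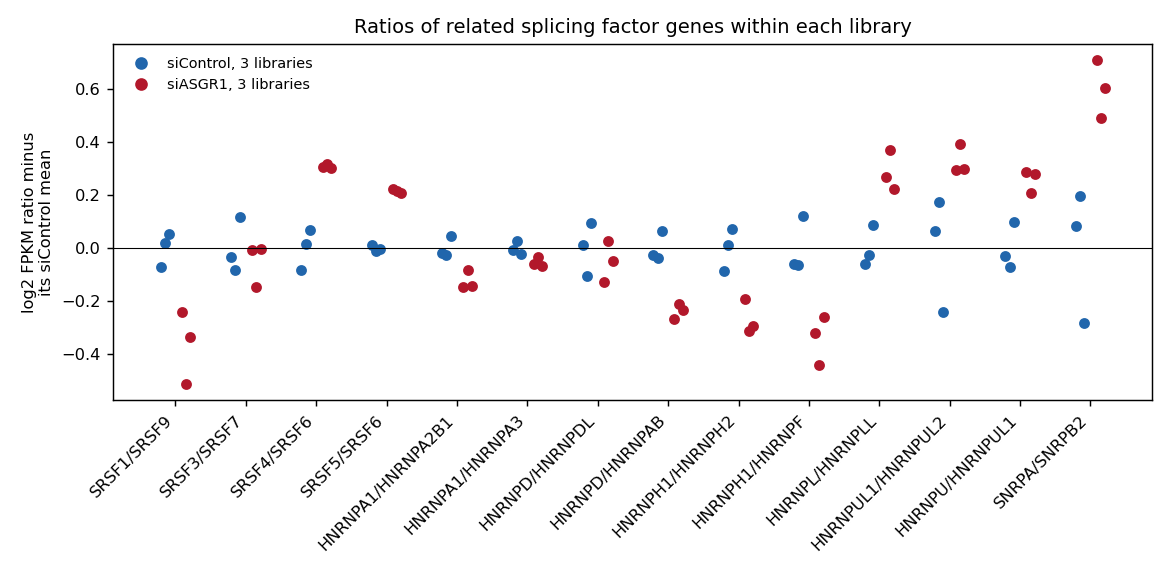
Log2 of the FPKM ratio of 14 pairs of related genes within each library, minus the mean of the 3 siControl libraries (blue, siControl; red, siASGR1; 1 point per library). SNRPA/SNRPB2 stands highest and SRSF1/SRSF9 lowest in siASGR1; the groups overlap for SRSF3/SRSF7 and HNRNPD/HNRNPDL.

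The other genes of the splicing pathway were read from 12 lists. Of 174 tested, 49 were called higher and 53 lower, with a median log2 fold change of 0.01. That is 28.2% higher and 30.5% lower, against 20.9% and 40.4% of all tested genes. These counts moved with scaling, to 97 higher and 23 lower with median-of-ratios factors, under which 33.4% and 25.8% of all tested genes were called. The shares of some lists lie near those of all genes, such as the SR kinase list with 18.2% higher and 36.4% lower. The 4 splicing factor families had more genes called higher than lower under both, as did the lists of the U4/U6.U5 tri-snRNP, of SR-related proteins and of other regulators. In the tri-snRNP list 10 of 19 rose and 3 fell as deposited, and 14 rose and 0 fell with median-of-ratios scaling. PRPF8, the protein at the heart of the catalytic centre, had a mean of 38.7 FPKM in siControl and 59.4 in siASGR1. PRPF31 went from 21.9 to 34.9, and SART3, which recycles the U4/U6 particle, from 21.2 to 30.2.

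Among factors that recognise the end of the intron, 3 of 12 were called higher and 4 lower, and with median-of-ratios scaling 8 and 3. U2AF2, the large U2AF subunit that binds the polypyrimidine tract and recruits SF3B1, rose from 25.9 to 41.7 FPKM. SF1, which binds the branch site before U2, fell from 21.3 to 15.4, and DDX42, an SF3B-associated helicase, from 19.3 to 13.8. In the list of U1 and U2 associated factors 1 of 10 was called higher and 2 lower, and with median-of-ratios scaling 6 and 0. HTATSF1 rose from 22.5 to 26.2, while LUC7L (11.2 and 9.95) and TIAL1 (19.6 and 17.2) were called lower as deposited but not with that scaling.

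In the minor spliceosome, which removes a rare class of introns, 1 of 9 was called higher and 6 lower. With median-of-ratios scaling 1 was higher and 1 lower. ZRSR2, its 3′ splice site factor, fell from 7.08 to 3.23 FPKM, and SNRNP25 rose from 12.4 to 20.8. SNRNP35 was 4.81 and 3.94 and was not called with that scaling. In the list of LSM ring genes 2 of 8 were called higher and 2 lower, and with median-of-ratios scaling 4 and 1. LSM4 fell from 84.8 to 56.6, LSM5 rose from 10.3 to 12.0, and LSM2 (42.1 and 35.1) was not called with median-of-ratios scaling.

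In the PRP19 and catalytic list 7 of 25 were called higher and 7 lower, and with median-of-ratios scaling 13 and 4. PRPF19 rose from 89.8 to 119 FPKM, while RBM22 (12.9 to 7.29) and BUD31 (36.2 to 20.5), which sit beside the catalytic RNA, fell.

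In the list of Sm protein assembly, in which the SMN complex loads Sm rings on RNA, 5 of 14 were called higher and 5 lower, and with median-of-ratios scaling 6 and 2. WDR77, partner of the methyltransferase PRMT5 that modifies Sm proteins, was 6.34, 7.06 and 6.33 FPKM in siControl and 15.51, 14.62 and 16.01 in siASGR1 (2.34-fold; log2 fold change 1.11, SE 0.0585, adjusted p = 9.94e-06 by limma). PRMT5 (23.8 to 32.9) and CLNS1A (11.9 to 14.4), which present Sm proteins with it, also rose and were named after their values were seen. GEMIN2, the SMN partner that holds the Sm ring, fell from 7.68 to 4.55. TGS1, which further methylates the cap of the assembled RNA, fell from 22.5 to 15.1.

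Among kinases that phosphorylate SR proteins or are related to those, their importer and 2 cyclophilins with SR-like tails, 2 of 11 genes were called higher and 4 lower, and with median-of-ratios scaling 4 and 1. SRPK2, a cytoplasmic SR kinase, fell from 11.5 to 6.75 FPKM, and CLK1, a nuclear one, rose from 9.54 to 11.5. NKTR, a cyclophilin (19.9 and 15.5), was lower as deposited and not called with median-of-ratios scaling. Of 18 SR-related genes 5 were called higher and 3 lower, and with median-of-ratios scaling 12 and 1. RBM25 (9.66 to 12.0) and ACIN1 (24.7 to 29.8) rose, and SRRM2 (75.1 to 55.2) fell.

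Among 33 other regulators of alternative splicing 12 were called higher and 10 lower, and with median-of-ratios scaling 22 and 7. TARDBP, encoding TDP-43, rose from 32.1 to 57.9 FPKM. MBNL2 fell from 12.0 to 4.60 and SFPQ from 44.9 to 28.4.

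The last 2 lists act on spliced RNA. In the exon junction complex 1 of 6 was called higher and 2 lower, and with median-of-ratios scaling 3 and 1. ALYREF, an export adaptor, rose from 33.4 to 61.1 FPKM, CASC3 fell from 17.2 to 12.4, and UPF3B (13.5 and 10.0) was not called with median-of-ratios scaling. In nonsense-mediated decay 0 of 9 were called higher and 5 lower. UPF2 fell from 15.6 to 8.03 and SMG9 from 5.59 to 3.86, and both were called lower with median-of-ratios scaling. UPF1 (35.6 and 30.1) was not called under that scaling, which gave 4 higher and 2 lower.

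**Figure D4:**
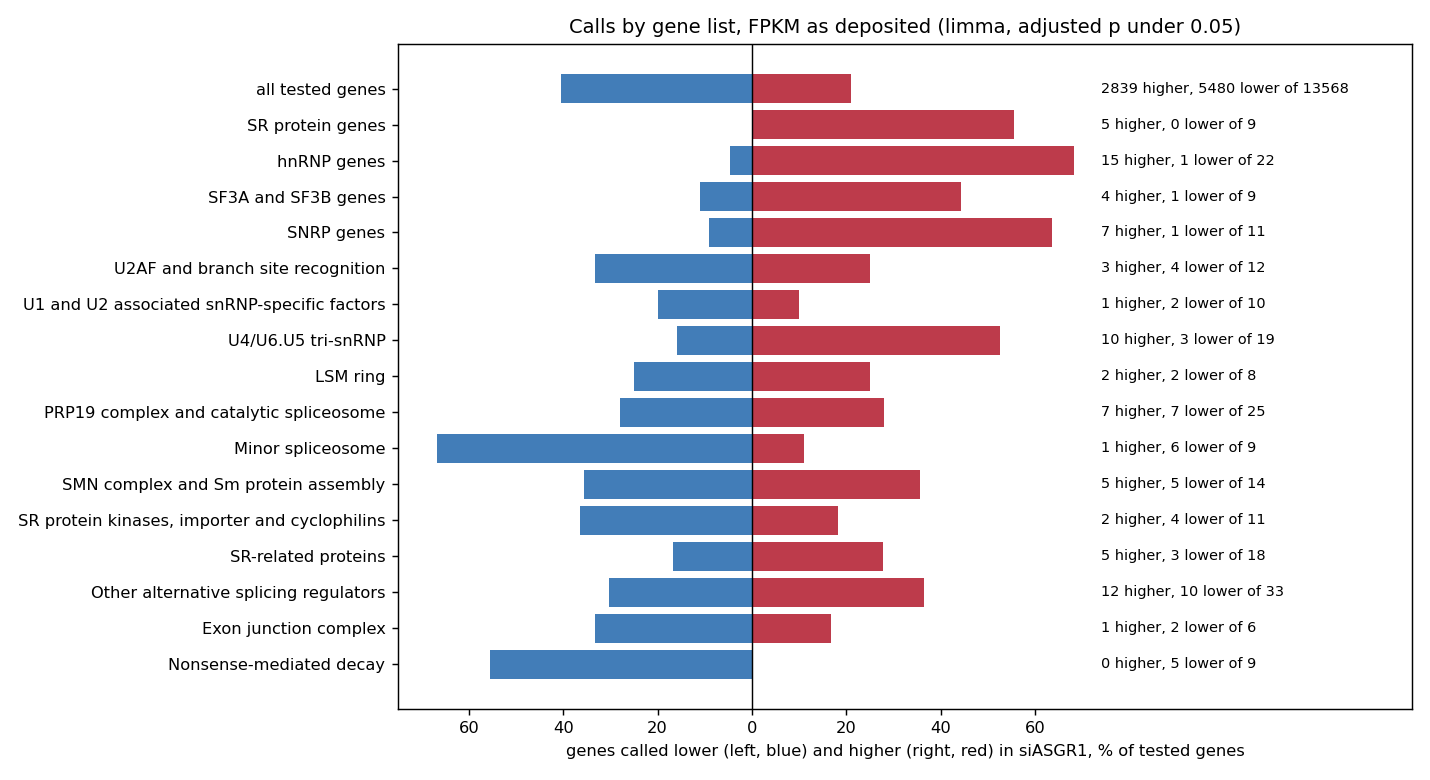
Share of tested genes called lower (left, blue) and higher (right, red) in siASGR1, in % of each list, with the counts at the right (limma, adjusted p under 0.05, FPKM as deposited). Of all tested genes 20.9% were called higher and 40.4% lower, which is itself a lean to the left. The 4 splicing factor families and the tri-snRNP list lean most to the right. The minor spliceosome and nonsense-mediated decay lists lean most to the left (1 higher and 1 lower, and 4 higher and 2 lower, with median-of-ratios scaling). The U2AF, U1 and U2 associated, SR kinase and exon junction lists also lean to the left. Each has a smaller share called lower than the 40.4% of all tested genes. With median-of-ratios scaling each has more genes higher than lower (8 and 3, 6 and 0, 4 and 1, and 3 and 1).

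Markers of cell types moved with the groups too. All 10 hepatocyte markers were called higher, and their summed FPKM was 3631.44 to 3773.57 in siControl and 6824.27 to 6916.85 in siASGR1. Of 8 fibroblast markers 3 were tested: COL1A1 and COL1A2 were lower, from 2.46 to 0.0267 and from 1.51 to 0.0200 FPKM, and PDGFRA higher, from 4.49 to 10.95. COL3A1 (0.71 to 0.12 FPKM), LUM (0.94 to 0.39) and DCN (0.23 to 0.01) lay under the filter and were lower, with separate groups. PDGFRB and THY1, also under it, overlapped between groups. The sum of the 8 was 10.13 to 11.12 in siControl and 11.03 to 12.30 in siASGR1, where nearly all of it was PDGFRA. Of the 6 leukocyte markers, whose sum was 70.76 to 77.09 and 116.07 to 119.66, nearly all was LYZ, while PTPRC and CD3E were at most 0.04. Of 4 endothelial markers in the table, with a sum of 0.05 to 0.14 and 0.16 to 0.21, KDR and TEK were listed at 0. The part of these markers in the splicing factor values was not tested.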

How the data were processed

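The 6 Huh7 libraries, 3 siControl and 3 siASGR1, were built with a TruSeq kit (total RNA input 1 µg), per the labels' protocols. Per the submitters' processing notes, HISAT2 2.0.1, cutadapt 1.9.1 and bcl2fastq 2.17.1.14 were used with the build hg19. Which counter and annotation made the values, and whether strand was used, is not given in the sources used here, so overlapping and antisense genes cannot be told apart. The authors deposited FPKM with 2 decimals. The table of the whole series was used, and the single files were an alternative. Of 57905 rows, 51996 (89.8%) had a symbol in the gene name tables.

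limma 3.58.1 in R 4.3.3 was fitted to log2(FPKM + 1) of the 13568 genes that reached 1 FPKM in at least 3 libraries. The group was the only term, the variance prior had a trend, and the test was two-sided with Benjamini-Hochberg adjustment. Fold changes on this scale are smaller than ratios of means for low genes. The fit was tested on simulated data. Fragments were rebuilt from steps of low FPKM with GENCODE v29 exon lengths; 95.1% to 95.9% of low values came out whole within rounding. No 2 libraries of a group agreed within sampling noise (chi-square over degrees of freedom 2.49 to 5.20).

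The members and lists were chosen with earlier results of these data known. Per-library values were given for up to 4 called members in each direction and the highest member of each family. From each of the 12 lists up to 3 called genes with the smallest p were named. Other names (HNRNPA1, HNRNPA3, HNRNPK, HNRNPF, SNRPC, PRMT5, CLNS1A) were added after values were seen. TAF15 and RBM8A had no row by symbol. Tables and plots used matplotlib 3.10.9, scipy 1.17.1, pandas 2.3.3, numpy 2.4.6 and Python 3.11.15.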

Additional observations from a re-analysis of the deposited data

How the results depend on the processing

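Over 17 alternatives (scaling, pseudocount, filter, variance prior, replicate block, deposited source, rebuilt reads and leaving out each library), 33 of the 34 called splicing factor genes kept their direction and call wherever they were tested; the exception was SRSF7. Where a count or direction changed, the cause was not tested. With median-of-ratios scaling 9 SR and 7 SF3 genes were called higher, and 97 genes of the other lists were higher and 23 lower; with upper-quartile scaling 7 SF3 genes were higher. Quantile normalization gave 2 SF3 genes lower, and 67 genes of the other lists higher and 31 lower. Under it 3890 of the 13568 tested genes were called higher and 4015 lower. limma-voom on rebuilt reads gave 2 SF3 genes lower, and no filter on low values gave 1 SR gene lower, SRSF12. Leaving out 1 library gave 1 to 2 hnRNP genes lower (2 without siASGR1 replicate 3) and 1 to 2 SF3 genes lower (2 without siASGR1 replicate 2). Among the paralog ratios SRSF3/SRSF7 differed on the log2 scale by -0.053, and from -0.095 (without siControl replicate 2) to 0.005 (without siControl replicate 3).

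Some genes that were not called as deposited changed sign. With median-of-ratios scaling the log2 fold change was 0.052 for SF3B5, 0.056 for SNRPB2, 0.148 for SRSF6, 0.128 for HNRNPH2 and 0.076 for HNRNPUL2. With upper-quartile scaling it was 0.025 for SRSF6 and 0.004 for HNRNPH2. With quantile normalization it was -0.006 for SF3B1, -0.009 for HNRNPA0 and -0.088 for HNRNPF. HNRNPF was -0.002 by voom, -0.018 without siControl replicate 3 and -0.020 without siASGR1 replicate 2, and at most 0.02 (without siASGR1 replicate 3). SNRPE was -0.034 without siControl replicate 1 and -0.005 without siASGR1 replicate 3, and at most 0.068 (without siControl replicate 2).

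With the replicate number as a block, 31 splicing factor genes were higher and 3 lower; SRSF7 lost its call (adjusted p = 0.0581, limma) and SF3B4 gained one (adjusted p = 0.029, limma). Deviations of same-numbered libraries correlated at -0.019, 0.002 and 0.012, so no shared effect of the replicate number was seen. Whether same-numbered libraries were made together is not given in the labels, and this check cannot tell. FPKM carry no absolute scale, so these values are shares of each library.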
